A study of Mus musculus with 12 samples.

Results

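The T cell receptor (TCR) gamma and delta transcripts described here were 5 of the 48709 rows of an RNA-seq count table from thymic *i*NKT cells: the gamma constant genes *Tcrg-C1*, *Tcrg-C2* and *Tcrg-C4*, the gamma variable segment *Trgv2* and the delta constant gene *Trdc*. They were chosen by measured values of the same libraries, because *Tcrg-C4* and *Trgv2* were past the threshold for a higher level in miR-155KI NK1.1- cells than in WT NK1.1- cells, and the other 3 were added as relatives of those genes. Every difference of these 5 genes, and of the other gamma and delta rows, between miR-155KI and WT in the NK1.1- pool is therefore given as a description, without a test. The 4 groups were NK1.1+ cells of miR-155KI and of WT mice and NK1.1- cells of miR-155KI and of WT mice, with 3 libraries in each and 12 in all. MiR-155KI mice carried a Rosa26 knock-in allele of miR-155, in 2 copies, together with a CD4Cre transgene, so that the cassette was switched on in all cells with Cd4-driven Cre and not in *i*NKT cells alone. WT mice were littermates that carried the knock-in allele without CD4Cre. All mice had the C57BL/6J background and were 7 weeks old. Thymocytes were depleted of CD8+ cells with beads and sorted by staining for CD44, NK1.1, TCRβ and the CD1d tetramer. This procedure is meant to remove γδ T cells and NK cells by the sort and CD4+ CD8+ double-positive thymocytes by the beads. How completely it did so was not tested. NK1.1+ cells correspond to the late stage of thymic *i*NKT maturation and NK1.1- cells to the earlier stages. No label ties a library to a mouse, so p-values measure only the spread between these libraries, which may in part be technical.

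An *i*NKT cell carries an αβ TCR, built from a nearly invariant alpha chain and a limited set of beta chains. The γδ TCR, the receptor of a separate T cell lineage, is built from gamma and delta chains whose genes are joined from variable (V), joining (J) and constant (C) segments. The mouse gamma locus is arranged in clusters: *Tcrg-V4*, *Tcrg-V5*, *Tcrg-V6* and *Tcrg-V7* lie upstream of *Trgj1* and *Tcrg-C1*, *Trgv2* joins to *Trgj2* and *Tcrg-C2* on the opposite strand, and *Tcrg-V1* joins to *Trgj4* and *Tcrg-C4*. Gamma genes are rearranged and transcribed in many αβ T cells too, where no γδ receptor reaches the surface. The delta genes lie inside the alpha locus and are cut out of a chromosome when a variable alpha segment joins a joining alpha segment on it.

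The joining segments and the constant genes are shown because counts of these genes can be told apart only where their letters differ. All sequences are GENCODE M21 transcripts on GRCm38, written 5′ to 3′ on the strand of the gene, and capitals mark bases that differ from the *Trgj2* or *Tcrg-C2* line of the same set. *Trgj1* (chr13:19210343-19210402, forward strand) differed from *Trgj2* (chr13:19311245-19311304, reverse strand) at 4 of 60 bases, whereas the 61 bases of *Trgj4* (chr13:19342152-19342212, forward strand) held 19 differences.
Trgj1: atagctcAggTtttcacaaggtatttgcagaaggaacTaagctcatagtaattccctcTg
Trgj2: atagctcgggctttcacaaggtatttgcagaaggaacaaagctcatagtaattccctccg
Trgj4: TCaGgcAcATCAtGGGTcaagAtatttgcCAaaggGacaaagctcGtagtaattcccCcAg
The first 120 bases of exon 1 are given for *Tcrg-C1* (chr13:19214103-19214222, forward strand), with 2 differences from *Tcrg-C2* (chr13:19307432-19307551, reverse strand), and for *Tcrg-C4* (chr13:19344558-19344677, forward strand), with 15. The first 120 bases of *Trdc* (chr14:54142851-54142970, forward strand) are printed without a comparison.
Tcrg-C1: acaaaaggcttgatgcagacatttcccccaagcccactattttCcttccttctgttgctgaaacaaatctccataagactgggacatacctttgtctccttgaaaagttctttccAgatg
Tcrg-C2: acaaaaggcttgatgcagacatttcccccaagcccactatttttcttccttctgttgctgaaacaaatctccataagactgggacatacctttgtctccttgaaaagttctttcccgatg
Tcrg-C4: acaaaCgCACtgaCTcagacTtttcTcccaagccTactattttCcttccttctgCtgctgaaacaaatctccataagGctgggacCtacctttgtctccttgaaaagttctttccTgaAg
Trdc: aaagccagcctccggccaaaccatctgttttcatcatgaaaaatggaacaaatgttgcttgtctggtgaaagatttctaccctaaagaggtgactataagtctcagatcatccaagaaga

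Over the whole of exon 1, 330 bases long in all 3 genes, *Tcrg-C1* and *Tcrg-C2* were 97.3% identical with 9 differing bases. *Tcrg-C4* was 82.1% identical to *Tcrg-C1* and 81.5% identical to *Tcrg-C2*. Of all stretches of 50 bases in the exons of *Tcrg-C1*, 34.2% occurred letter for letter in *Tcrg-C2* or *Tcrg-C3*, and 25.4% of those of *Tcrg-C2* occurred in *Tcrg-C1* or *Tcrg-C3*. *Tcrg-C4* shared none with any other row of the locus. The split between *Tcrg-C1* and *Tcrg-C2* is thus less certain than their sum, because read length and the treatment of reads that fit both genes are not given in the sources used here. *Trgv2* shared 7.01% of its stretches of 50 bases with *Tcrg-V1* or *Tcrg-V3*. *Trdc* overlaps *Gm43434* and *Trdv5* on the opposite strand, and reads of overlapping genes cannot be told apart where counting does not use strand, which is not stated.

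The libraries held 12819476 to 20518257 counts, and a count of 3, taken as the limit of detection, was worth 0.150 to 0.226 CPM (counts scaled to library size, with the trimmed mean of M-values). *Mir155hg*, the host transcript of miR-155, lay at 95.2 to 144 CPM in miR-155KI libraries and 9.65 to 13.7 CPM in WT libraries, and *Klrb1c*, which encodes NK1.1, at 358 to 774 CPM in NK1.1+ libraries and 36.7 to 79.9 CPM in NK1.1- libraries. The 6 *i*NKT markers *Zbtb16*, *Trav11*, *Traj18*, *Cd3e*, *Trbc2* and *Trac* were present in all 12 libraries and summed to 3407 to 4670 CPM. The sex-linked RNA of the groups differed: in all miR-155KI libraries and in WT replicate 1 of both pools Y-linked RNA exceeded *Xist* RNA, with log2 ratios of 2.33 to 4.65, whereas in WT replicates 2 and 3 of both pools the ratios were -3.56 to -3.04. WT replicate 1 is thus the control library closest to the miR-155KI libraries in this respect, and values with it as the only control are given below.

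Gamma transcripts were abundant in every group. Per kilobase of exon, a scale on which genes can be compared, the median level over the 12 libraries was 296 CPM per kilobase for *Tcrg-C2* (147 to 435), 202 for *Tcrg-C4* (123 to 387), 198 for *Trgv2* (112 to 299) and 181 for *Tcrg-C1* (121 to 247). *Trac*, the constant gene of the alpha chain, had a median of 1086 on the same scale (818 to 1760). *Trdc* lay far below at 0.250 CPM per kilobase (0.106 to 4.29). The gamma locus gave 166445 counts in 14 rows over the 12 libraries, against 668 counts in 11 delta rows.

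**Figure D1:**
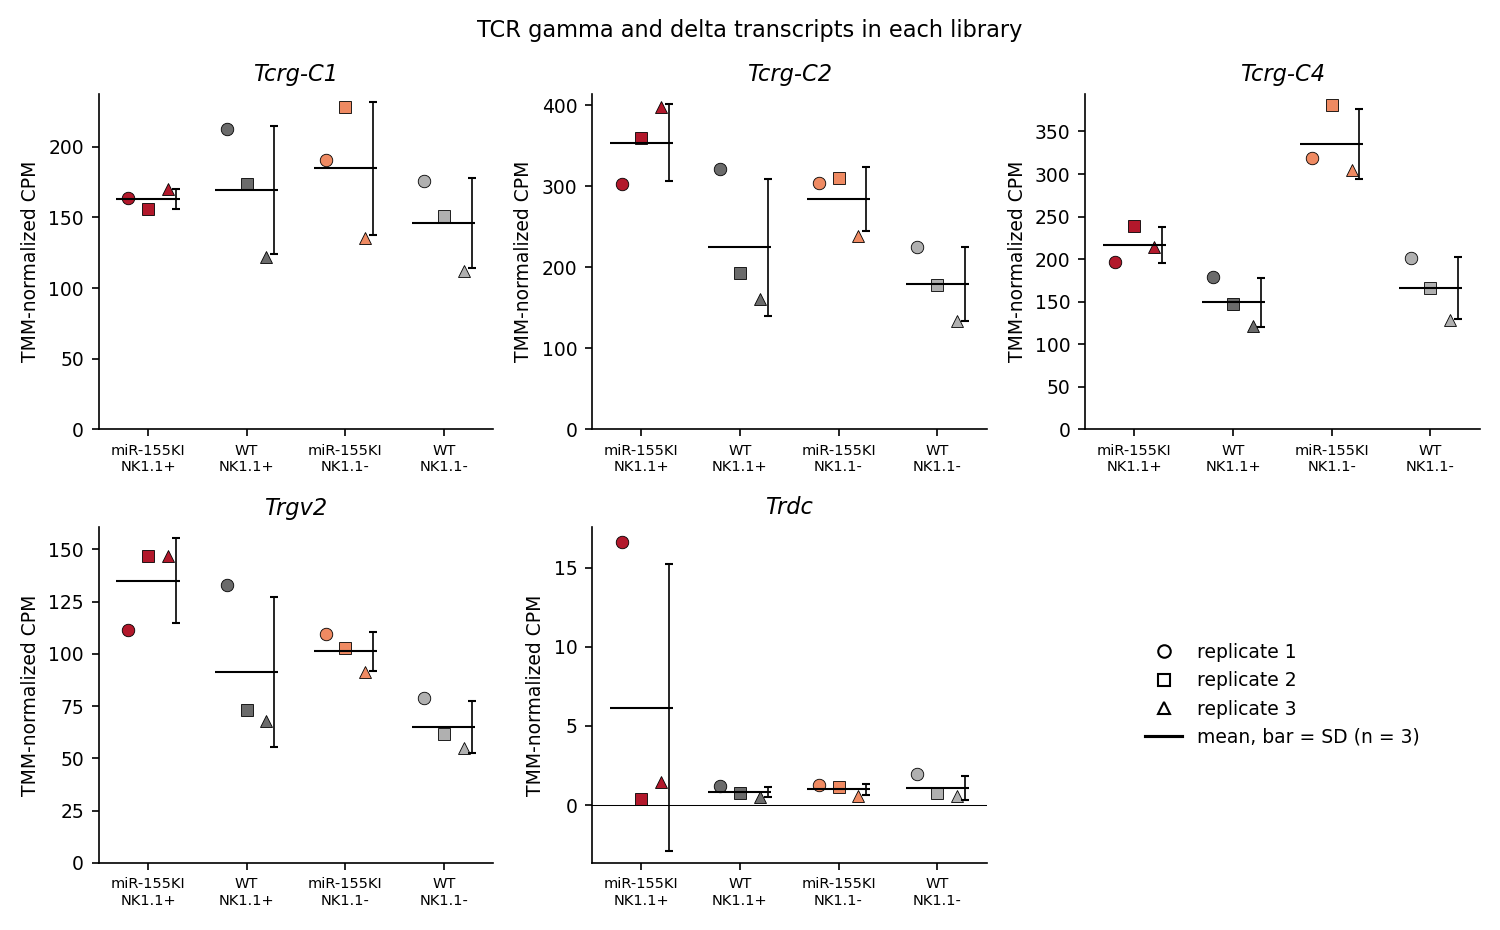
Level of each of the 5 genes in every library, in CPM scaled by the trimmed mean of M-values, with 1 panel per gene, 1 point per library and the group mean with its SD (n = 3) as a bar. *Tcrg-C4* in the 3 miR-155KI NK1.1- libraries (305 to 382 CPM) lies above all 9 other libraries, and *Trdc* stands at 16.6 CPM in miR-155KI NK1.1+ replicate 1 and at 0.410 to 1.95 CPM in the other 11.

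*Tcrg-C4*, the constant gene of the cluster of *Tcrg-V1*, had its highest level in miR-155KI NK1.1- cells. It lay at 318, 382 and 305 CPM in miR-155KI NK1.1- replicates 1, 2 and 3, against 202, 166 and 129 CPM in WT NK1.1- replicates 1, 2 and 3. All 3 miR-155KI libraries exceeded all 3 WT libraries, with means of 335 ± 40.9 and 166 ± 36.5 CPM (SD, n = 3 each) and a log2 fold change of 1.00 (SE 0.16), a 2.00-fold difference. In the NK1.1+ pool *Tcrg-C4* lay at 196, 239 and 214 CPM in miR-155KI replicates and 178, 148 and 121 CPM in WT replicates. Here too the groups did not overlap. The means were 216 ± 21.3 and 149 ± 28.6 CPM, the log2 fold change was 0.52 (SE 0.16), and edgeR's quasi-likelihood test did not pass the threshold (adjusted p = 0.273). The group means ran downward in the order of miR-155KI NK1.1-, then miR-155KI NK1.1+, then WT NK1.1- and last WT NK1.1+ cells, and of the neighbours in that order only the first pair did not overlap.

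*Tcrg-C2*, the constant gene of the *Trgv2* cluster, had a higher mean in the miR-155KI than in the WT group of each pool. In NK1.1+ cells it lay at 303, 360 and 397 CPM in miR-155KI replicates 1, 2 and 3, against 321, 193 and 161 CPM in WT replicates 1, 2 and 3. WT replicate 1 fell inside the miR-155KI range. The log2 fold change was 0.64 (SE 0.23) and did not pass the threshold (edgeR adjusted p = 0.315). In NK1.1- cells *Tcrg-C2* lay at 304, 310 and 239 CPM in miR-155KI replicates and at 225, 178 and 134 CPM in WT replicates. These groups did not overlap, and the log2 fold change was 0.65 (SE 0.18). The group means were 353 ± 47.5 CPM in miR-155KI NK1.1+, 284 ± 39.7 in miR-155KI NK1.1-, 225 ± 84.5 in WT NK1.1+ and 179 ± 45.5 in WT NK1.1- cells, and all neighbours in this order overlapped.

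*Trgv2*, the variable segment joined to *Trgj2* and *Tcrg-C2*, ran with *Tcrg-C2*. It lay at 111, 147 and 147 CPM in miR-155KI NK1.1+ replicates, against 133, 73.2 and 67.9 CPM in WT NK1.1+ replicates. As for *Tcrg-C2*, WT NK1.1+ replicate 1 lay inside the miR-155KI range, and the log2 fold change of 0.55 (SE 0.24) did not pass the threshold (edgeR adjusted p = 0.399). In NK1.1- cells the levels were 109, 103 and 91.2 CPM in miR-155KI replicates and 79.0, 61.6 and 54.8 CPM in WT replicates, with no overlap and a log2 fold change of 0.62 (SE 0.14). *Trgv2* was the gene of the set just inside the threshold that chose the set, and *Tcrg-C2*, with a log2 fold change of 0.65 and the larger SE of 0.18, lay just outside it. The group means were 135 ± 20.5 CPM in miR-155KI NK1.1+, 101 ± 9.21 in miR-155KI NK1.1-, 91.3 ± 36.0 in WT NK1.1+ and 65.1 ± 12.5 in WT NK1.1- cells. The first pair of neighbours did not overlap, and the other pairs did.

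*Tcrg-C1*, the constant gene downstream of *Tcrg-V4* to *Tcrg-V7*, differed least between the groups. It lay at 164, 156 and 170 CPM in miR-155KI NK1.1+ replicates, against 212, 173 and 122 CPM in WT NK1.1+ replicates, and its log2 fold change was -0.07 (SE 0.19; edgeR adjusted p = 0.929). In NK1.1- cells it lay at 191, 228 and 135 CPM in miR-155KI replicates and 176, 151 and 112 CPM in WT replicates. Both pairs of groups overlapped, and the log2 fold change in NK1.1- cells was 0.32 (SE 0.22). The 4 group means lay between 146 ± 32.2 CPM in WT NK1.1- and 185 ± 46.9 CPM in miR-155KI NK1.1- cells. Summed with *Tcrg-C2* into 1 row, which removes the uncertain split, the log2 fold changes of miR-155KI over WT were 0.38 for the NK1.1+ pool and 0.51 for the NK1.1- pool.

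Within each WT pool, all 4 gamma genes were highest in replicate 1 and lowest in replicate 3. The sex-linked RNA also sets WT replicate 1 apart from WT replicates 2 and 3, which were alike in it. A link between the sex-linked RNA and the gamma levels was not tested. Against WT replicate 1 alone, the log2 fold changes in NK1.1- cells were 0.73 for *Tcrg-C4*, 0.34 for *Tcrg-C2* and 0.36 for *Trgv2*. In NK1.1+ cells they were 0.27 for *Tcrg-C4*, 0.13 for *Tcrg-C2*, 0.02 for *Trgv2* and -0.39 for *Tcrg-C1*. With the sex-linked RNA as a covariate the values in NK1.1- cells were 0.73 for *Tcrg-C4*, 0.31 for *Tcrg-C2*, 0.34 for *Trgv2* and 0.03 for *Tcrg-C1*. The same covariate gave, in NK1.1+ cells, 0.35 for *Tcrg-C4*, 0.23 for *Tcrg-C2*, 0.15 for *Trgv2* and -0.36 for *Tcrg-C1*. In NK1.1- cells the log2 values of *Tcrg-C2* and *Trgv2* against WT replicate 1 were smaller by over 1.5 times than against all 3 WT libraries.

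Over the whole table, 0.0231% of the 12991 genes tested in NK1.1+ cells passed the adjusted threshold of 0.05, and 11.8% had an unadjusted p under 0.05. None of the 5 genes passed, 4 of the 5 had an unadjusted p under 0.05, and DESeq2 and limma-voom also called none. *Trdc* was 1 of these 4 and rests on 1 library, as described below. With the sex-linked RNA as a covariate, 0 of the 5 had an unadjusted edgeR p under 0.05. Without WT NK1.1+ replicate 2, or without replicate 3, 1 of the 5 did. Without WT NK1.1+ replicate 1, *Tcrg-C2* passed (log2 fold change 0.99, edgeR adjusted p = 0.0395). *Tcrg-C4* was the 1 gene of the 5 whose NK1.1+ groups did not overlap, where 8.46% of all genes were non-overlapping and higher in miR-155KI. The median log2 fold change of the 5 genes was 0.55, beside 0.02 over all genes. The same-numbered WT libraries of the 2 pools deviated together, with correlations of 0.338, 0.255 and 0.136, and may come from the same mice, so the NK1.1+ comparison is not fully independent of the comparison by which the genes were chosen.

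Of the 13304 genes tested in NK1.1- cells, 3.44% passed the threshold in either direction, 1.93% of all genes tested passed as higher in miR-155KI, and 13.2% had non-overlapping groups with miR-155KI higher. *Tcrg-C2*, *Tcrg-C4* and *Trgv2* were of the last kind, and since this comparison chose the set, nothing is read from that count. The median log2 fold change of the 5 genes was 0.62, beside -0.001 over all genes. The choice of the set bears on this median too, so nothing is read from it either.

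**Figure D2:**
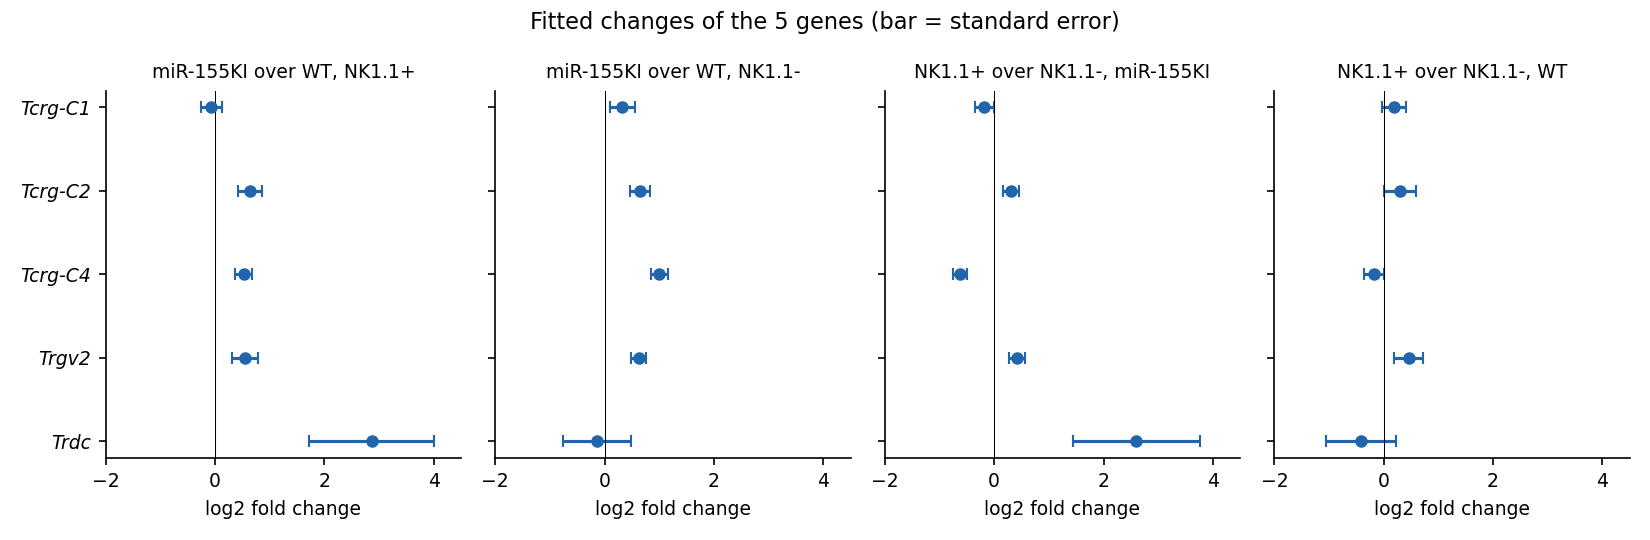
Log2 fold change with its SE (horizontal bars) for the 5 genes in each of the 4 comparisons, with a vertical line at 0. *Tcrg-C4* differs by 1.00 between miR-155KI and WT in NK1.1- cells and by -0.63 between NK1.1+ and NK1.1- cells of miR-155KI mice, and *Trdc* has the widest error bars, with SEs of 0.62 to 1.16.

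Between the pools of miR-155KI mice, *Tcrg-C4* and *Trgv2* ran in opposite directions. *Tcrg-C4* was lower in every NK1.1+ library than in every NK1.1- library (log2 fold change -0.63, SE 0.13), and *Trgv2* was higher in the same sense (0.42, SE 0.15). Both are given without a test, since the NK1.1- libraries took part in the choice of these genes. Non-overlapping groups were seen in 17.5% of all genes with NK1.1+ higher and in 17.1% with NK1.1+ lower. In WT mice the same differences were -0.18 (SE 0.19) for *Tcrg-C4* and 0.46 (SE 0.27) for *Trgv2*, and none of the 5 genes had non-overlapping groups, where 20.4% of all genes did with NK1.1+ higher and 18.6% with NK1.1+ lower. The difference between the genotype effects of the pools, NK1.1+ minus NK1.1-, was -0.48 (SE 0.24) on the log2 scale for *Tcrg-C4*, -0.07 for *Trgv2*, -0.02 for *Tcrg-C2* and -0.39 for *Tcrg-C1*.

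*Tcrg-C1* and *Tcrg-C2*, whose own values did not choose the set, were tested between the pools. *Tcrg-C2* was added as a relative of *Trgv2* and ran with it (r = 0.974), so its tests are not fully free of the choice. *Tcrg-C1* had a log2 fold change of NK1.1+ over NK1.1- of -0.18 (SE 0.18; edgeR adjusted p = 0.572) in miR-155KI mice and 0.18 (SE 0.22; adjusted p = 0.614) in WT mice. *Tcrg-C2* had 0.31 (SE 0.14; adjusted p = 0.198) in miR-155KI and 0.30 (SE 0.29; adjusted p = 0.529) in WT mice. Neither gene passed in either genotype, while 14.1% of 12942 genes passed in miR-155KI and 20.8% of 13555 genes in WT mice. These fits did not pair the libraries. With same-numbered WT libraries paired in a replicate block, the edgeR adjusted p was 0.264 for *Tcrg-C1* and 0.0990 for *Tcrg-C2*. The sum of the 14 gamma rows moved little between pools, with log2 fold changes of -0.07 (SE 0.13) in miR-155KI and 0.17 (SE 0.23) in WT mice. Between genotypes, the sum differed by 0.41 (SE 0.19) in the NK1.1+ pool and by 0.68 (SE 0.17) in the NK1.1- pool.

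Of the 10 other gamma rows, 9 passed the filter on low counts in each comparison. In NK1.1- cells all 9 had a positive log2 fold change of miR-155KI over WT, from 0.32 to 2.04 with a median of 0.49. *Trgj4*, the joining segment of the *Tcrg-C4* cluster, lay at 8.65, 9.85 and 8.62 CPM in miR-155KI NK1.1- replicates and 5.58, 4.29 and 3.57 CPM in WT NK1.1- replicates. Its log2 fold change of 1.00 (SE 0.27) was as large as that of *Tcrg-C4*, and its groups did not overlap. *Tcrg-V7* lay at 2.52, 4.51 and 4.28 CPM in miR-155KI NK1.1- replicates, against 1.61, 1.14 and 0.781 CPM in WT NK1.1- replicates, again without overlap. *Tcrg-V5*, the segment with the largest log2 fold change (2.04), was spread widely in miR-155KI NK1.1- cells and highest in replicate 2. It lay at 3.09, 11.2 and 1.45 CPM in miR-155KI and at 1.05, 1.37 and 1.28 CPM in WT libraries.

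In NK1.1+ cells 7 of these 9 rows had a positive and 2 a negative log2 fold change of miR-155KI over WT, with a median of 0.08. *Tcrg-V4*, the most abundant of the other rows, lay at 20.7 to 47.6 CPM over the 12 libraries. The ranges of the remaining rows were 4.41 to 15.5 CPM for *Trgj2*, 3.51 to 8.42 for *Trgj1*, 2.74 to 9.70 for *Tcrg-C3*, 1.45 to 5.04 for *Tcrg-V3*, 1.23 to 3.56 for *Tcrg-V6* and 0.0584 to 0.620 for *Trgj3*. *Trgj3* was thus near the limit of detection. *Tcrg-V1*, the variable segment of the *Tcrg-C4* cluster, had no row under that symbol among the counts, so its level could not be given.

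**Figure D3:**
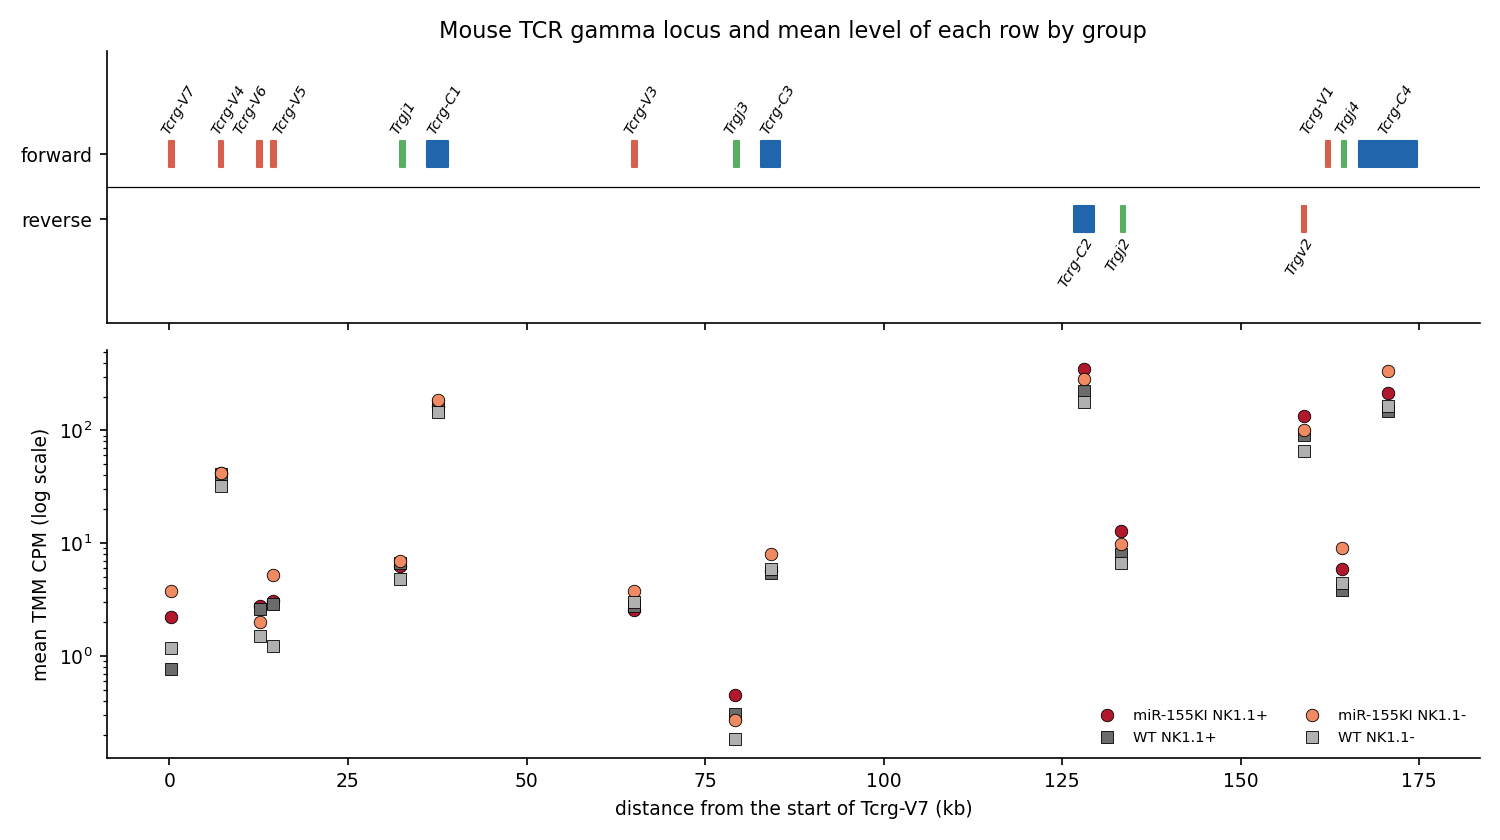
Map of the mouse gamma locus as distance in kilobases from the start of *Tcrg-V7* (upper panel, strand on the vertical axis) and the mean CPM of each row in each group on a log scale (lower panel, n = 3 per point). *Tcrg-C4* and *Trgj4*, at the right end, have their highest mean in miR-155KI NK1.1- cells, and *Tcrg-C2*, *Trgj2* and *Trgv2* have theirs in miR-155KI NK1.1+ cells. *Tcrg-V1* is drawn on the map only.

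Ratios of gamma rows within a library do not depend on its depth, and they set the clusters of the locus against each other. They were formed after the values had been seen and are descriptions. The level of *Tcrg-C4* over that of *Tcrg-C2*, per length, was 0.971, 1.14 and 1.19 in miR-155KI NK1.1- replicates and 0.832, 0.867 and 0.891 in WT NK1.1- replicates. In NK1.1+ cells it was 0.601, 0.615 and 0.499 in miR-155KI and 0.517, 0.712 and 0.700 in WT replicates. All 6 NK1.1- libraries lay above all 6 NK1.1+ libraries, and the 3 miR-155KI NK1.1- libraries lay highest. The ratio of counts of the joining segments *Trgj4* and *Trgj2* had the same order in NK1.1- cells, at 0.840, 0.897 and 1.01 in miR-155KI and 0.667, 0.605 and 0.810 in WT replicates. In NK1.1+ cells this ratio was 0.347 to 0.616 in miR-155KI and 0.438 to 0.575 in WT replicates, and the groups overlapped.

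The ratio of *Tcrg-C1* to *Tcrg-C2* per length rests on the uncertain split of reads between these genes, described above. As counted, it separated the genotypes in both pools. It was 0.423 to 0.535 in miR-155KI NK1.1+ and 0.656 to 0.891 in WT NK1.1+ libraries, and 0.560 to 0.728 in miR-155KI NK1.1- and 0.771 to 0.840 in WT NK1.1- libraries. The most abundant variable segments had narrower ratios to their constant genes: *Trgv2* over *Tcrg-C2* was 0.618 to 0.786, and *Tcrg-V4* over *Tcrg-C1* was 0.402 to 0.605, over all 12 libraries. Set against the alpha chain, the summed gamma constant level over that of *Trac* was 0.479 to 0.621 in miR-155KI NK1.1+, 0.298 to 0.521 in WT NK1.1+, 0.715 to 0.996 in miR-155KI NK1.1- and 0.482 to 0.695 in WT NK1.1- libraries.

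**Figure D4:**
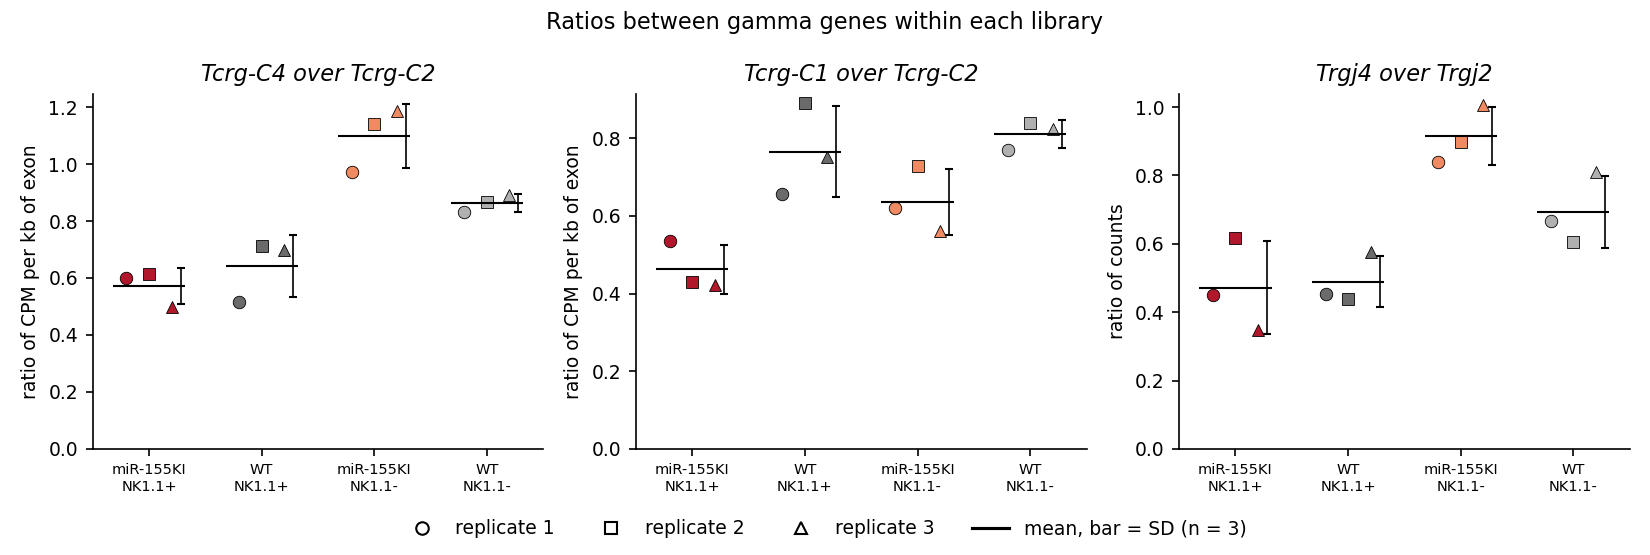
Ratios between gamma rows within each library, with 1 point per library and the group mean with its SD (n = 3). *Tcrg-C4* over *Tcrg-C2* per length lies at 0.499 to 0.615 in miR-155KI and 0.517 to 0.712 in WT NK1.1+ libraries, and at 0.971 to 1.19 in miR-155KI and 0.832 to 0.891 in WT NK1.1- libraries.

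The gene pairs ran together to different degrees over the 12 libraries, described by Pearson's r of log2 CPM without a p, since the points share genotype, pool and library depth. *Tcrg-C2* and *Trgv2* had the highest r of the member pairs, 0.974, and 0.957 after the group means were taken out. *Tcrg-C4* had r of 0.668 with *Tcrg-C2* and 0.553 with *Trgv2*, and 0.891 and 0.807 within groups. *Trdc* had r of 0.0817 to 0.318 with the 4 gamma genes.

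Among 12697 genes outside the gamma and delta loci, the 5 most like each member were as follows, again as descriptions over the same 12 libraries. *Tcrg-C4* was most like *Rap2b* (r = 0.965), *Izumo1r*, *Pex2*, *Mgst2* and *Gatc* (0.915). *Tcrg-C2* was most like *Mut* (0.935), *Zfp759*, *Tmem60*, *Fundc1* and *Mterf2* (0.924). *Trgv2* was most like *Mettl7a1* (0.947), *Idnk*, *Cd3g*, *Glipr1* and *Ubox5* (0.927), of which *Cd3g* encodes the gamma chain of the CD3 complex, a subunit of every TCR. *Tcrg-C1* reached lower values, with *Plxnc1* (0.853), *Ints4*, *Arfgap3*, *Mmgt2* and *Efcab7* (0.784). *Trdc* was most like *Adgrg1* (0.943), *Slf1*, *Dgkeos*, *Trbv2* and *Ly6d* (0.938), and its values rest on 1 library, as described next.

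*Trdc*, the constant gene of the delta chain, was low in 11 libraries and high in 1. It lay at 16.6, 0.410 and 1.45 CPM in miR-155KI NK1.1+ replicates 1, 2 and 3, against 1.19, 0.759 and 0.551 CPM in WT NK1.1+ replicates 1, 2 and 3. In NK1.1- cells it lay at 1.29, 1.13 and 0.589 CPM in miR-155KI and 1.95, 0.801 and 0.558 CPM in WT replicates. MiR-155KI NK1.1+ replicate 1 held 250 of the 430 *Trdc* counts of the series, and the other libraries held 7 to 28 each. The exact Poisson interval of its level was 14.6 to 18.8 CPM (95%, counting error only). The log2 fold change of miR-155KI over WT in NK1.1+ cells was 2.87 (SE 1.14; edgeR adjusted p = 0.359) with this library and 0.16 without it. In the miR-155KI mice NK1.1+ over NK1.1- gave 2.60 (SE 1.16; edgeR adjusted p = 0.180) with it and -0.12 without it. DESeq2 called this difference with all libraries (adjusted p = 0.0438), and limma-voom did not. In WT mice NK1.1+ over NK1.1- gave -0.42 (SE 0.64; edgeR adjusted p = 0.697), and miR-155KI over WT in NK1.1- cells gave -0.14 (SE 0.62). Per length, *Trdc* reached 0.601% of the summed gamma constant level in miR-155KI NK1.1+ replicate 1 and 0.0130% to 0.0777% in the other 11 libraries.

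The other delta rows were sparse. Of 10, 4 reached 10 counts over the series: *Trdv2-2* with 125, *Trdv5* with 41, *Trdv1* with 37 and *Trdj1* with 15 counts. The library high in *Trdc* held 32 of the *Trdv5* counts, 27 of the *Trdv2-2* counts and 10 of the *Trdj1* counts. *Trdv5* overlaps *Trdc*, so its counts are not separate evidence. MiR-155KI NK1.1+ replicate 3 held 44 counts of *Trdv2-2*, or 2.78 CPM, and 14 of *Trdv1*, with 23 counts of *Trdc*. Of the 6 rows under 10 counts, 3 had no count in any library. The 10 variable segments that can join to either alpha or delta genes summed to 8.25 to 13.9 CPM in miR-155KI NK1.1+, 9.56 to 12.1 in WT NK1.1+, 10.7 to 12.4 in miR-155KI NK1.1- and 8.37 to 10.8 CPM in WT NK1.1- libraries.

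**Figure D5:**
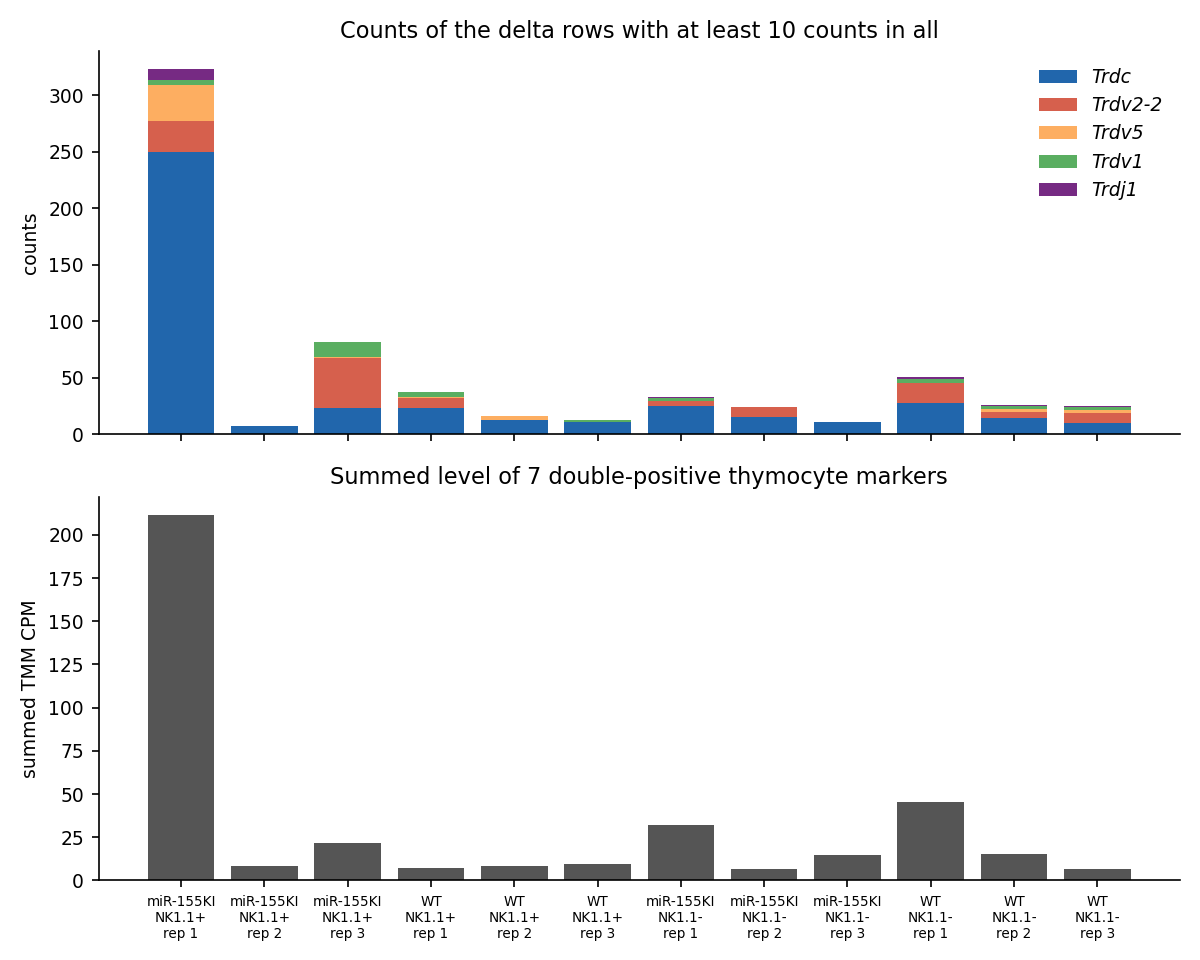
Counts of the 5 delta rows with at least 10 counts over the series, stacked for each library (upper panel), and the summed CPM of 7 markers of double-positive thymocytes in the same libraries (lower panel). MiR-155KI NK1.1+ replicate 1 is highest in both panels, with 250 counts of *Trdc* and a marker sum of 211 CPM. Over all 11 delta rows it held 326 of the 668 counts, and replicate 3 of the same group held 82.

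Markers of double-positive thymocytes moved with *Trdc* in this library. Of the 7 markers of CD4+ CD8+ double-positive thymocytes, the stage before *i*NKT selection, 6 had their highest level of all 12 libraries in miR-155KI NK1.1+ replicate 1. *Dntt*, which encodes the enzyme that adds untemplated bases at the joins, lay there at 107 CPM, against at most 6.43 CPM elsewhere, and *Ptcra*, the surrogate alpha chain, at 8.95 CPM. *Cd8b1*, the exception among the 7, was highest in a WT NK1.1- library at 18.9 CPM, against at most 18.1 CPM in miR-155KI NK1.1+ libraries. The markers summed to 211, 8.48 and 21.6 CPM in miR-155KI NK1.1+ replicates 1, 2 and 3, 7.02 to 9.26 CPM in WT NK1.1+, 6.54 to 31.9 CPM in miR-155KI NK1.1- and 6.53 to 45.2 CPM in WT NK1.1- libraries. The CD8 bead depletion is meant to remove such cells, and how complete it was in each library was not tested. None of the 5 markers of γδ T cells beyond the receptor (*Sox13*, *Blk*, *Cd163l1*, *5830411N06Rik* and *Etv5*) had its highest level of all 12 libraries there. Their sum in it, 147 CPM, was the highest of the 6 NK1.1+ libraries, against 145 and 106 CPM in miR-155KI NK1.1+ replicates 2 and 3 and 126 to 130 CPM in WT NK1.1+ libraries. All 7 NK and innate lymphoid markers were over 1 CPM in this library, against at most 5 in any other. It held the highest level of 2 of them, as did miR-155KI NK1.1+ replicate 2. Their sum was 134, 193 and 116 CPM in miR-155KI NK1.1+ replicates 1, 2 and 3. The part of any of these cell types in the *Trdc* level was not tested. In bulk RNA, fewer cells of a type and less RNA per cell cannot be told apart.

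Other markers were set beside the gamma genes. Myeloid markers summed to 98.3 to 370 CPM in miR-155KI NK1.1+, 20.8 to 23.9 in WT NK1.1+, 17.8 to 56.2 in miR-155KI NK1.1- and 19.3 to 79.8 CPM in WT NK1.1- libraries. *C1qa* and *C1qc*, complement genes of macrophages, passed in NK1.1+ cells as higher in miR-155KI (log2 fold changes 4.19 and 4.30, edgeR adjusted p = 0.0286 for each). DESeq2 called 6 of the 9 myeloid markers tested and limma-voom none (adjusted p = 0.306 for *C1qa* and 0.334 for *C1qc*), and 0 to 6 were called over the alternative settings. Over all genes in this comparison DESeq2 called 316 of 14133. Both edgeR calls were lost with the sex-linked RNA as a covariate (adjusted p = 0.703 for each). They were also lost without WT NK1.1+ replicate 2 or 3 (adjusted p = 0.106 and 0.150). The call of *C1qc* was lost without miR-155KI NK1.1+ replicate 1 (0.0592) and that of *C1qa* without miR-155KI NK1.1+ replicate 3 (0.0555). B cell markers summed to 247 to 313 CPM in miR-155KI NK1.1+, 234 to 288 in WT NK1.1+, 80.2 to 114 in miR-155KI NK1.1- and 107 to 256 CPM in WT NK1.1- libraries. NK and innate lymphoid markers summed to 116 to 193, 123 to 217, 76.6 to 98.8 and 128 to 225 CPM in the same 4 groups. The γδ markers beyond the receptor summed to 179 to 296 CPM in miR-155KI NK1.1- and 197 to 241 CPM in WT NK1.1- libraries, which overlapped. None of these 5 markers passed with edgeR or limma-voom in that comparison, *Sox13* (1.93), *5830411N06Rik* (-0.37) and *Etv5* (0.38) had an unadjusted p under 0.05, and DESeq2 called 1 as higher. The part of these cells in the gamma levels was not tested.

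The αβ constant genes and the CD3 complex, the partners of the receptor chains in every T cell, were measured beside the gamma genes. None of the 3 αβ constant genes *Trac*, *Trbc1* and *Trbc2* passed between genotypes in either pool with edgeR, DESeq2 or limma-voom, and none had an unadjusted p under 0.05. Their median log2 fold changes of miR-155KI over WT were 0.02 for the NK1.1+ pool and 0.05 for the NK1.1- pool. *Trac* was higher in NK1.1+ than in NK1.1- cells, by 0.60 in miR-155KI (adjusted p = 0.0285) and 0.75 in WT mice (adjusted p = 0.000749), and it was the 1 αβ constant gene of the 3 that passed. Of the 6 CD3 and assembly genes, *Cd3e*, a CD3 subunit, rose in NK1.1+ cells relative to NK1.1- cells of both genotypes. So did *Fcer1g*, the gamma chain of Fc receptors and not a CD3 subunit, while *Cd247*, the zeta chain, fell. The log2 fold changes were 3.13 in miR-155KI and 2.78 in WT mice for *Fcer1g*, 0.44 and 0.51 for *Cd3e*, and -0.72 and -0.54 for *Cd247*. Of all genes tested, 14.1% passed between the pools in miR-155KI and 20.8% in WT mice. In miR-155KI mice the call of *Trac* was lost on the deposited CPM and without any single library other than NK1.1+ replicate 1 (adjusted p = 0.0721 to 0.124). That of *Cd3e* was lost on the deposited CPM and without NK1.1+ replicate 3 or any NK1.1- replicate in miR-155KI mice (0.0631 to 0.109), and without NK1.1+ replicate 2 or NK1.1- replicate 1 in WT mice (0.0543 and 0.0847). Between genotypes none of the 6 passed with edgeR in either pool. In NK1.1+ cells none had an unadjusted p under 0.05 and DESeq2 and limma-voom called none. In NK1.1- cells *Cd3g* (0.38) and *Cd247* (0.25) had an unadjusted p under 0.05, with 1 of the 6 called by DESeq2 and none by limma-voom.

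The list of 18 γδ lineage genes holds regulators and effector genes of γδ T cells, most of which *i*NKT cells share, the IL-17 programme among them. Of all genes tested in NK1.1- cells, 1.5% passed as lower and 1.93% as higher in miR-155KI than in WT. Of the 18 listed, 6 fell and 1 rose, with a median log2 fold change of -0.42. Among the genes that fell were *Il17re*, a chain of the IL-17C receptor (-2.81), *Il1r1* (-2.81) and *Il23r* (-3.18), receptors of cytokines that drive IL-17, together with *Il17a* and *Ccr6*. The edgeR adjusted p-values were 0.000114 for *Il17re*, 0.00315 for *Il1r1* and 0.0116 for *Il23r*. *Id3*, an inhibitor of E proteins, rose by 0.53 (adjusted p = 0.0496) and lay at 589, 491 and 499 CPM in miR-155KI and 404, 284 and 398 CPM in WT NK1.1- replicates. Over the alternative settings 3 to 6 genes of the list fell and 0 to 2 rose. The call of *Id3* was lost with limma-voom (adjusted p = 0.0687) and without any single library other than WT NK1.1- replicate 1, with log2 fold changes of 0.39 to 0.59. *Sox13*, a transcription factor of the γδ lineage, lay at 90.3, 94.2 and 30.7 CPM in miR-155KI NK1.1- and 14.0, 25.0 and 16.5 CPM in WT NK1.1- replicates, without overlap, and did not pass (log2 fold change 1.93, adjusted p = 0.164). It was chosen after its values were seen.

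In NK1.1+ cells none of the 18 γδ lineage genes passed between genotypes with edgeR or limma-voom, *Id3* alone had an unadjusted p under 0.05 (log2 fold change 0.98, adjusted p = 0.201), and DESeq2 called 1 gene of the list as higher. Between the pools, 6.15% of all genes passed as lower and 7.92% as higher in NK1.1+ than in NK1.1- cells of miR-155KI mice. In WT mice the shares were 10.9% and 9.89%. Of the 18 listed genes, 6 fell and none rose in NK1.1+ cells of miR-155KI mice, and 11 fell and 2 rose in WT mice. Over the alternative settings 4 to 6 fell and 0 to 1 rose in miR-155KI mice, and 10 to 13 fell and 0 to 2 rose in WT mice. The 4 with the smallest p in miR-155KI mice were *Id3* (-1.77), *Zbtb16* (-1.20), *Tox* (-1.02) and *Sox13* (-2.49). *Blk* (-1.37) and *Cd163l1* (-1.16) fell there too. In WT mice *Id3* fell by 2.25, *Tox* by 0.97 and *Blk* by 2.27 on the log2 scale. The median log2 fold change of the list was -0.22 in miR-155KI and -1.59 in WT mice.

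The 15 genes of the list on control of the gamma locus include the IL-7 receptor and its signalling chain, which open the locus in mouse T cell precursors, and the Runx, Myb, Gata3 and E protein families. In NK1.1- cells *Id3* rose and *Runx3*, a transcription factor of CD8+ T cells and NK cells, fell by 1.14 (adjusted p = 0.00342) in miR-155KI relative to WT. *Runx3* lay at 34.6, 36.7 and 27.3 CPM in miR-155KI and 54.9, 83.1 and 76.2 CPM in WT NK1.1- replicates. Its call was lost with the sex-linked covariate (-0.79, adjusted p = 0.131) and against WT replicate 1 alone (-0.74, adjusted p = 0.153), and that of *Id3* was lost in these and other settings. In NK1.1+ cells none of the 15 passed with edgeR or limma-voom, while *Id3* (0.98), *Il7r* (-0.33) and *Runx3* (-0.39) had an unadjusted p under 0.05 and DESeq2 called 1 gene. Between the pools, 7.92% of all genes passed as higher and 6.15% as lower in NK1.1+ cells of miR-155KI mice, and 9.89% and 10.9% in WT mice. Of the 15 listed genes, 4 rose and 3 fell in NK1.1+ relative to NK1.1- cells of miR-155KI mice, and 4 rose and 4 fell in WT mice. Over the alternative settings 2 to 5 rose and 2 to 6 fell in miR-155KI mice, and 2 to 6 rose and 4 to 6 fell in WT mice. *Runx3* rose by 2.41 in miR-155KI and 1.63 in WT mice, and *Il7r* by 0.58 and 0.60. *Id2*, another inhibitor of E proteins, rose by 1.27 in miR-155KI mice (adjusted p = 0.000953) and did not pass in WT mice (log2 fold change 0.63, adjusted p = 0.292). *Stat5b*, which signals below the IL-7 receptor, fell by 0.74 in miR-155KI mice, and *Myb* by 1.43 and *Runx1* by 0.86 in WT mice. The medians of the list were 0.11 and -0.07 in miR-155KI and WT mice.

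The recombination genes, which cut and rejoin receptor genes, did not pass between genotypes. Of 11 tested in NK1.1+ cells, *Xrcc6* (0.71) and *Hmgb2* (0.34) had an unadjusted p under 0.05, and DESeq2 and limma-voom called none. Of 10 tested in NK1.1- cells none had an unadjusted p under 0.05, and neither other tool called any. Between the pools of WT mice *Hmgb2*, *Hmgb1* and *Xrcc6*, the first 2 of which encode DNA-bending cofactors of the recombinase and the last the Ku70 repair protein, fell by 0.95, 0.51 and 0.48 in NK1.1+ relative to NK1.1- cells. DESeq2 called 2 of these and did not call *Xrcc6* (adjusted p = 0.0517), limma-voom called 3 genes, and 1 to 3 genes of the list fell over the alternative settings. Of all genes tested between the WT pools, 10.9% passed as lower in NK1.1+ cells. *Hmgb1* was not called without WT NK1.1+ replicate 2 or 3 or WT NK1.1- replicate 1 or 3 (adjusted p = 0.0594 to 0.151), nor was *Xrcc6* without these libraries or WT NK1.1- replicate 2 (0.0864 to 0.202). In miR-155KI mice none of 10 passed with edgeR or limma-voom, *Xrcc4* (0.58) had an unadjusted p under 0.05 and DESeq2 called 1 gene.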

How the data were processed

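Thymic *i*NKT cells of 4 groups, 3 libraries each, were measured by RNA-seq. The authors deposited counts per gene, not normalized, and a table they call CPM. That deposited signal equalled the count times 1 factor per library and summed to 899833 to 1091959, so it was treated as a scaled signal and used only in alternatives. The submitters' notes name bcl2fastq 2.17.1.14 and the builds GRCm38 and mm10. Aligner, counting program, read length and use of strand are not given in the sources used here, and the study describes a different library kit from the labels and speaks of pooled replicates.

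The 5 genes and the gene lists were chosen with earlier results of these data known. Each comparison was fitted alone over all genes with edgeR 4.0.16 in R 4.3.3 (filterByExpr, trimmed mean of M-values, robust quasi-likelihood test, Benjamini-Hochberg adjustment over all genes tested, threshold 0.05). The study names no test of single genes for these data. DESeq2 1.42.0, limma 3.58.1 (voom), other filters and scalings, a replicate block, covariates and leaving out each library were alternatives. Scripts were tested on simulated data.

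Levels are CPM on edgeR's effective library sizes. Levels per length were divided by GENCODE M21 exon length on GRCm38. Intervals cover counting error only. Named were the 5 genes, every other gamma or delta row with at least 10 counts over the series, the 5 genes with the largest Pearson r with each member (log2 of CPM plus 0.5), and, per list and comparison, up to 4 genes past the threshold by smallest p, apart from 1 that is not reported here. Some further genes are named where a count of 5 or fewer is given or where stated. For cell markers, sums are given instead. Sex-linked RNA is the log2 ratio of Y-linked genes to *Xist*.

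Same-numbered WT libraries deviated together between the pools (r = 0.338, 0.255 and 0.136 for replicates 1, 2 and 3), so these numbers may pair the WT pools. For miR-155KI pools the r values were 0.126, 0.0830 and 0.0674. The reported fits did not pair the libraries, and the replicate block, an alternative given below, did.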

Additional observations from a re-analysis of the deposited data

How the results depend on the processing

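Of 452 alternative values for the 5 genes, 423 kept the direction and the side of the threshold or lay within the spread, 5 passed the threshold where the reported fit did not, 15 moved by more than the spread and 9 changed sign. For *Tcrg-C1*, miR-155KI over WT in NK1.1+ cells was 0.0063 on log2 (deposited CPM + 1), 0.0066 on log2 (deposited CPM + 0.1), 0.38 summed with *Tcrg-C2* and -0.25 to 0.13 with each library left out (0.13 without WT NK1.1+ replicate 1), and NK1.1+ over NK1.1- in miR-155KI was 0.14 summed with *Tcrg-C2*. With each library left out, NK1.1+ over NK1.1- in WT ranged over -0.019 to 0.38 for *Tcrg-C1* and -0.054 to 0.50 for *Tcrg-C2* (lowest without WT NK1.1+ replicate 1) and -0.77 to 0.26 for *Trdc* (highest without WT NK1.1- replicate 1), and in miR-155KI over -0.12 to 3.16 for *Trdc* (lowest without miR-155KI NK1.1+ replicate 1). Without a filter on low counts 2 of the 5 genes passed in NK1.1+ cells, *Tcrg-C2* (adjusted p = 0.0232) and *Trdc* (adjusted p = 0.0314), against 0 in the reported fit and 0 to 1 with each library left out. In the miR-155KI pools 1 passed with DESeq2 and 1 without the filter, *Trdc* in both (adjusted p = 0.0438 and 0.0130). The causes were not tested. The sex-linked covariate gave -1.06 and WT replicate 1 as the only control -0.96 for *Trdc* in NK1.1- cells.

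Calls over all genes varied more: in NK1.1+ cells 3 in the reported fit, 316 with DESeq2, 282 without the filter, 60 with all 12 libraries fitted together and 125 without WT NK1.1+ replicate 1; in NK1.1- cells 457, 960, 1048 and 139 for the first 4 of these and 114 with the sex-linked covariate. DESeq2 put the median log2 fold change of all genes at -0.18 for the NK1.1+ pool and -0.15 for the NK1.1- pool, against 0.02 and -0.001. With the replicate block, the WT pools gave 4053 calls against 2819, and *Tcrg-C1*, *Tcrg-C2* and *Trdc* still did not pass (0.17, 0.27 and -0.33; adjusted p = 0.264, 0.0990 and 0.723). The block gave 7 calls against 3 in NK1.1+ cells, where *Trdc* was 1.52, 737 against 457 in NK1.1- cells and 1838 against 1821 in the miR-155KI pools, and it changed no other call on the 5 genes that were tested. With each miR-155KI and WT number compared, every library correlated best with its own number in NK1.1- cells (0.0874, 0.168 and 0.0912) and not in NK1.1+ cells (-0.0596, 0.0159 and 0.0098). Depth limits *Trdc*, with 7 to 28 counts in 11 libraries, but not the gamma genes.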
